A study of Mus musculus with 16 samples.

Results

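The Ms4a family genes described here are Ms4a7, Ms4a6b, Ms4a6c, Ms4a6d, Ms4a4c and Ms4a4b, 6 of the 24411 genes of the exon count table, taken by their gene symbols. Of 17 genes whose symbols start with Ms4a, the other 11 serve as context. All 17 lie on chromosome 19 between 11036785 and 11715341 (NCBI37/mm9), a span of 679 kb. The libraries came from 8 bone marrow (BM) chimeras. C57BL/6J WT recipients, 6 weeks old by the study's text, were irradiated with 950 cGy and transplanted with congenic WT BM, so that graft-derived cells carry CD45.1 and host cells CD45.2. Both populations were sorted from each brain as Ly6C/G-, CD11b+ cells with low CD45.1 (engrafted cells) or low CD45.2 (host microglia). The 4 mice of the LPS groups received 2.5 mg/kg of LPS, a bacterial endotoxin, and were killed 12 hours later, whereas the other 4 mice had no injection, so that the injection itself and LPS cannot be told apart. The 4 groups (engrafted control, engrafted LPS, host control and host LPS) thus hold 4 libraries each, and irradiation and transplantation are common to all of them. The labels give either 3.5 or 9 months between transplantation and analysis without assigning mice to them, and the study's text gives 9 months for this experiment.

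The family encodes small proteins that pass the membrane 4 times. Its best known members are the B cell antigen CD20 (Ms4a1) and the β chain of the high-affinity IgE receptor (Ms4a2). The Ms4a4, Ms4a6 and Ms4a7 genes are mainly those of monocytes and macrophages, with Ms4a4b best known from T cells. In the brain, Ms4a7 is widely used to tell macrophages of the brain borders and BM-derived cells from resident microglia.

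Counts were scaled to CPM (the usual counts scaled to a common library total) with edgeR's TMM factors, and the libraries held 395283 to 1203597 reads on genes, so that 3 reads corresponded to 2.39 to 8.41 CPM. The shallowest was engrafted LPS mouse 4. A gene was called when edgeR's quasi-likelihood test gave a Benjamini-Hochberg adjusted p below 0.05 over all genes tested, together with a change of more than 2-fold. Microglial markers (10 genes) summed to 21781 to 25022 CPM in host control, 8193 to 10073 in engrafted control, 10368 to 13214 in host LPS and 3409 to 4486 in engrafted LPS libraries, and Sall1 stood at only 17.3 CPM in engrafted control against 321 in host control. Perivascular macrophage markers (10 genes without Ms4a7) reached 2095 to 2282 CPM in engrafted control and 1763 to 2460 in engrafted LPS libraries, against 386 to 529 and 429 to 880 in host control and host LPS, where Lyve1 had no read. Monocyte markers (8 genes) summed to 178 to 317 CPM in engrafted control and 2114 to 6432 in engrafted LPS libraries, and to no more than 47.3 in any host library. Neutrophil markers (10 genes) ranged from 24.4 to 1244 CPM over engrafted and from 0 to 15.95 over host libraries. B cell (8 genes), T and NK cell (12), mast cell and basophil (8) and dendritic cell (6) markers summed to at most 75.9, 42.1, 25.7 and 37.8 CPM in any library. Of the B cell markers, Cd79a and Pax5 were at 0 in all groups. Cd79b made up most of their sum, at means of 53.7 CPM in engrafted control, 20.7 in engrafted LPS, 43.6 in host control and 20.2 in host LPS. Neuronal (5), astrocyte (4), oligodendrocyte (4) and endothelial (4) markers summed to at most 136, 247, 148 and 31.3 CPM. The astrocyte sums of host libraries were mostly Slc1a3, at means of 206 CPM in host control and 177 in host LPS. Slc1a3 stood at 9.72 CPM in engrafted control and 11.6 in engrafted LPS. The neuronal maximum came from host control, where the median sum was 13.9 CPM.

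The sequences before the transcription start sites show how closely the members are related. For the 3 Ms4a6 genes, which include the member that rose most after LPS in each population, a run of 30 bases is given. Each run was cut around AGGAAGT, given in capitals, so the match at those bases was set by the choice. The run ends 72 bases before the annotated start of Ms4a6b (chr19:11592948-11592977, plus strand), 3 bases before that of Ms4a6c (chr19:11543826-11543855, plus strand) and 54 bases before that of Ms4a6d (chr19:11679348-11679377, minus strand). In GENCODE it lies inside the first exon of a longer Ms4a6b transcript.
Ms4a6b: gggactttctgatatAGGAAGTacaggcac
Ms4a6c: gggactttctgatatAGGAAGTacaggcac
Ms4a6d: ggaagtctatgaaaaAGGAAGTaaaggcac
The runs of Ms4a6b and Ms4a6c were identical in all 30 bases, and that of Ms4a6d differed from them at 7. All 3 Ms4a6 genes held AGGAAGT in the 250 bases before their starts, Ms4a6b and Ms4a6d a second time on the other strand. This motif was chosen after the sequences had been seen, and 7.55% of 24341 promoters of this length hold it on either strand.

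The 2 Ms4a4 members are shown because near-identical upstream sequences stood before genes of very different levels. Capitals mark GAGGAA, the core of the PU.1 motif. The stretches given are chr19:11482066-11482150 for Ms4a4c and chr19:11517963-11518042 for Ms4a4b, both on the plus strand.
Ms4a4c: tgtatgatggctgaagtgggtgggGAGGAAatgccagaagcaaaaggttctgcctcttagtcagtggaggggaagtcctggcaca
Ms4a4b: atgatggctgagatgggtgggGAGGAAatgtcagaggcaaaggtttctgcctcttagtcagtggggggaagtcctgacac
Over the aligned part of their 250-base promoters, Ms4a4c and Ms4a4b were 80.1% identical, Ms4a6b and Ms4a6c 85.1%, Ms4a6b and Ms4a6d 72.0%, and Ms4a6c and Ms4a6d 65.6%, the last close to pairs across the groups such as Ms4a7 and Ms4a6d at 64.0%.
Ms4a7, the member that differed most between the populations, carried neither run in the 250 bases before its start, of which the last 100 (chr19:11410637-11410736, minus strand) are given.
Ms4a7: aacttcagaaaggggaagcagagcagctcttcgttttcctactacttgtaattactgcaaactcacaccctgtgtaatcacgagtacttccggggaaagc
GAGGAA occurred in 2 of the 6 members and in 22.9% of all promoters. The core of the interferon-stimulated response element (ISRE), the GAS motif TTCNNNGAA, the AP-1 motif TGANTCA and the kappaB motif were searched on both strands and occurred in none of the 6, against 3.13%, 6.84%, 6.16% and 1.14% of all promoters. These are matches of letters in one window and say nothing of binding.

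Coding sequences were more alike within the Ms4a4 and Ms4a6 genes than between them. Ms4a4c and Ms4a4b were 91.8% identical, Ms4a6b and Ms4a6c 85.3%, Ms4a6b and Ms4a6d 81.3%, and Ms4a6c and Ms4a6d 79.1%, whereas Ms4a7 shared 63.0 to 66.2% with each of the others. The study kept uniquely mapped reads only, so reads from identical stretches would be lost or misplaced. Of all runs of 36 bases in the exons, 13.5% occurred in another Ms4a gene for Ms4a6c, 12.9% for Ms4a4b, 8.93% for Ms4a4c, 6.11% for Ms4a6b, 2.46% for Ms4a6d and 0.142% for Ms4a7. Counts of Ms4a6c, Ms4a6b, Ms4a4c and Ms4a4b may therefore be less certain than those of Ms4a7 and Ms4a6d. These exons are those of all GENCODE transcripts of a gene, which exceed the exons counted for some members. Whether the shared runs lie where the reads fall was not tested.

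**Figure D1:**
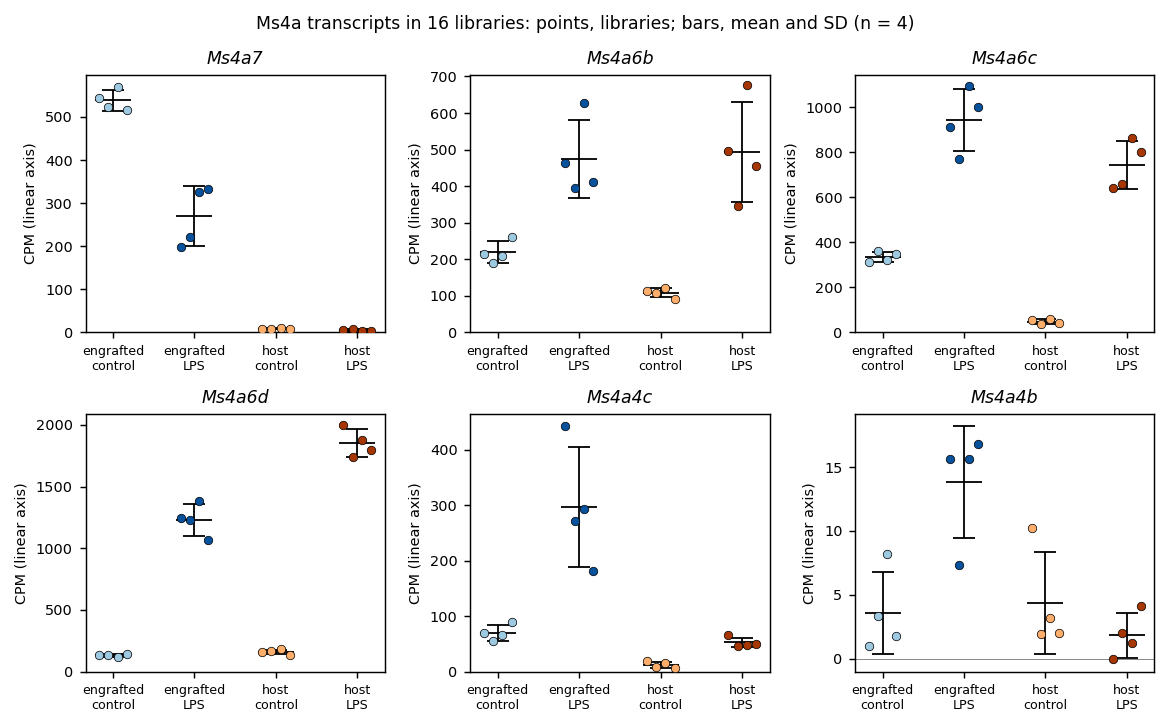
TMM-scaled CPM (linear axes from 0, with a scale of its own in each panel) of the 6 Ms4a genes in the 16 libraries. Points are libraries and bars are mean and SD (n = 4). Ms4a7 was high in the engrafted cells alone, Ms4a6d was high in both populations after LPS, and Ms4a4b never exceeded 16.8 CPM.

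The first comparison asked how the family differed between the populations in brains of mice without LPS. Engrafted cells expressed more Ms4a7, Ms4a6c, Ms4a4c and Ms4a6b, while Ms4a6d was not called and Ms4a4b was too sparse to be tested across genes. Of the 5 members that passed the filter for low counts, 4 were called higher in engrafted cells, where 6.25% of all 8042 genes tested were called higher, 4.73% lower and 11.0% in either direction. The median log2 fold change of the 5 was 2.59, beside 0.02 over all genes tested. The same 4 members had libraries that did not overlap between the populations, which held for 26.6% of all genes tested. Ms4a7 and Ms4a4c passed the filter only through their engrafted libraries, since 0 and 2 of their 4 host libraries lay above its limit of 12.5 CPM. The count and the median are therefore descriptions, as are the p-values of these 2 genes and the rank of Ms4a7 given below. In bulk libraries, fewer cells that express a gene and less RNA of it per cell cannot be told apart.

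Ms4a7 (NM_001025610, chromosome 19, 11395529 to 11410636, minus strand) gave 545, 523, 570 and 517 CPM in the engrafted control libraries of mice 5 to 8, and 7.32, 7.77, 10.4 and 8.17 CPM in the host control libraries of the same mice. Every engrafted library thus lay far above every host library, and the engrafted libraries varied little. The log2 fold change was 6.01 (SE 0.18, adjusted p = 3.49e-18 from edgeR), a 64.4-fold difference that ranked 27 of 8042 genes by size. The host level was 1.56% of the engrafted level and rested on 5 to 13 reads per library. Perivascular macrophage markers, given above, were also higher in engrafted libraries, and their part in the Ms4a7 difference was not tested.

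Ms4a6c (NM_028595, chromosome 19, 11543858 to 11556686, plus strand) gave 314, 361, 323 and 347 CPM in engrafted control libraries of mice 5 to 8. The host control libraries held 55.6, 37.9, 57.4 and 40.8 CPM, so that the groups were well apart. It was 7.30-fold higher in engrafted cells (log2 fold change 2.87, SE 0.16, adjusted p = 1.90e-13 from edgeR).

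Ms4a6b (NM_027209, chromosome 19, 11593049 to 11604893, plus strand) stood at 214, 190, 210 and 261 CPM in engrafted and at 114, 109, 120 and 91.9 CPM in host control libraries. The groups did not overlap, but the difference was close to the 2-fold threshold (log2 fold change 1.06, SE 0.14, adjusted p = 2.08e-06 from edgeR). The call ended, at a log2 fold change of 0.97 each, with scaling by library totals and without engrafted control mouse 8, and at 0.98 without host control mouse 8.

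Ms4a6d (NM_026835, chromosome 19, 11661096 to 11679294, minus strand) was the only one of the 5 tested members that was not called. Its engrafted control libraries held 133, 135, 116 and 142 CPM and its host control libraries 157, 165, 182 and 136 CPM, which overlapped. The log2 fold change was -0.23 (SE 0.14, adjusted p = 0.250 from edgeR).

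Ms4a4c (NM_029499, chromosome 19, 11482151 to 11501736, plus strand) gave 69.5, 55.6, 65.5 and 90.0 CPM in engrafted control libraries. In host control libraries it gave 19.0, 7.77, 15.2 and 7.15 CPM, or 7 to 19 reads. All engrafted libraries lay above all host libraries, with a 6.04-fold difference (log2 fold change 2.59, SE 0.27, adjusted p = 2.16e-08 from edgeR).

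Ms4a4b (NM_021718, chromosome 19, 11518048 to 11538038, plus strand), known as a T cell gene, had 1, 2, 5 and 1 reads in engrafted control and 7, 2, 4 and 2 reads in host control libraries. These overlapped, with means of 3.59 ± 3.22 and 4.36 ± 3.97 CPM (SD, n = 4 each). The 2-sided exact permutation test gave p = 0.657, and a difference was not detectable at this depth.

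The second comparison set the same populations side by side 12 hours after LPS. Ms4a7 and Ms4a4c remained higher in engrafted cells, whereas Ms4a6c and Ms4a6b were not called and Ms4a6d lay on the host side at less than 2-fold. Of 5 members tested (Ms4a7 through its engrafted libraries only), 2 were called higher, beside 6.73% called higher and 11.1% called in either direction among 7843 genes. The median log2 fold change of the 5 was 0.37, beside -0.01 over all genes. Libraries did not overlap for 3 of the 5, beside 20.6% of all genes. With scaling by library totals, the median over all genes moved by -0.15 in this comparison. The p-value and rank of Ms4a7 given below are descriptions, since 0 of its 4 host libraries lay above the filter's limit.

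Ms4a7 gave 199, 221, 327 and 334 CPM in the engrafted LPS libraries of mice 1 to 4, and 5.73, 7.98, 2.41 and 4.17 CPM in their host libraries. The populations remained far apart, with host microglia at 1.88% of the engrafted level from 2 to 8 reads per library. The log2 fold change was 5.66 (SE 0.31, adjusted p = 8.42e-10 from edgeR), a 50.7-fold difference that ranked 37 of 7843 genes.

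Ms4a4c held 443, 272, 293 and 182 CPM in engrafted and 65.4, 46.9, 48.3 and 50.1 CPM in host LPS libraries. Every engrafted library again exceeded every host library, by 5.76-fold in the fit (log2 fold change 2.53, SE 0.25, adjusted p = 6.76e-07 from edgeR). Monocyte markers were far higher in the same engrafted libraries, with Plac8 at 630, 396, 392 and 202 CPM, Hp at 3991, 2558, 1272 and 1020 CPM and Ly6c2 at 867, 871, 714 and 412 CPM in mice 1 to 4. These were 3 of the 8 markers, and the order of the mice differed between markers, so no likeness to Ms4a4c by mouse is drawn from them. The part of the 8 monocyte markers in the result was not tested.

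Ms4a6c reached 910, 770, 1093 and 1001 CPM in engrafted and 643, 661, 863 and 801 CPM in host LPS libraries. The 2 ranges overlapped and the log2 fold change of 0.37 (SE 0.19) was not called (adjusted p = 0.230 from edgeR). For Ms4a6b, with 463, 395, 627 and 412 CPM in engrafted and 497, 345, 676 and 456 CPM in host libraries, the difference was -0.03 (SE 0.23, adjusted p = 0.948 from edgeR). In both genes the libraries of mouse 3 were the highest of each population.

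Ms4a6d held 1244, 1230, 1382 and 1065 CPM in engrafted and 1996, 1740, 1876 and 1796 CPM in host LPS libraries. All host libraries lay above all engrafted ones, at a 1.48-fold difference (log2 fold change -0.57, SE 0.17, adjusted p = 0.0286 from edgeR) that stayed under the 2-fold threshold. Over the alternatives, the adjusted p of this difference ran from 0.000170 to 0.0918.

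Ms4a4b had 14, 6, 12 and 6 reads in engrafted LPS libraries of mice 1 to 4 and 0, 2, 1 and 3 reads in host LPS libraries. At 13.9 ± 4.39 against 1.84 ± 1.76 CPM (SD, n = 4 each) the groups did not overlap. The exact permutation p was 0.0286, the smallest that 4 libraries against 4 can give when the pairing within mice is not used. T and NK cell markers summed to 2.44 to 42.1 CPM in the same engrafted libraries, where 8 of the 12 had a read, and to 4.59 to 28.9 CPM in the host ones. Their part in the result was not tested.

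**Figure D2:**
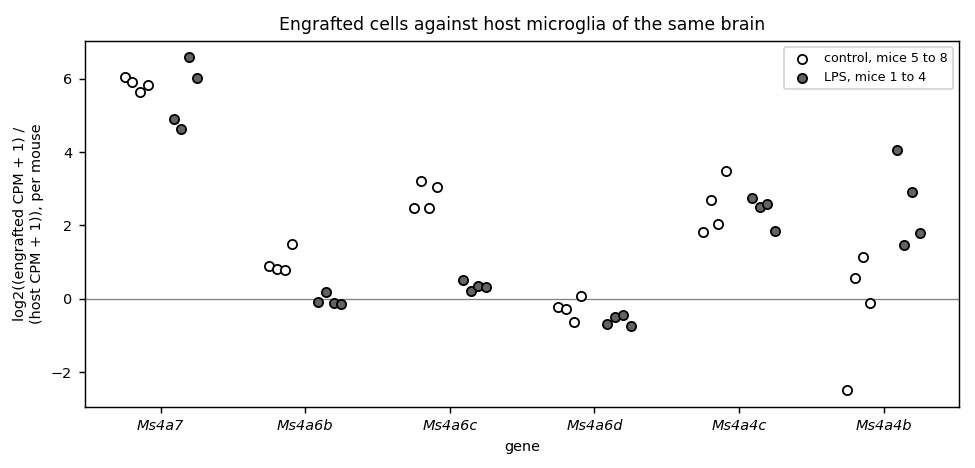
Log2 ratio of engrafted to host CPM, each after adding 1 CPM, within each brain (y axis) for the 6 genes (x axis). Open circles are control mice 5 to 8 and filled circles LPS mice 1 to 4. The Ms4a6c and Ms4a6b points of LPS mice sit near 0, below all control mice, whereas the Ms4a4c points of both groups overlap.

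Since both populations came from the same brains, the difference can also be read mouse by mouse, as drawn in the plot of log2 ratios within brains. Ms4a7 was higher in the engrafted cells of 8 of 8 mice, by a log2 ratio of 5.65 to 6.04 in control and 4.63 to 6.58 in LPS mice. Ms4a6c was also higher in engrafted cells of 8 of 8 mice, but by 2.47 to 3.22 in control and by 0.22 to 0.50 in LPS mice. For Ms4a6b the log2 ratio was 0.80 to 1.495 in control and -0.15 to 0.20 in LPS mice, and Ms4a6d was lower in engrafted cells of 4 of 4 LPS mice. The Ms4a4c ratios of both groups of mice overlapped, at 1.82 to 3.48 in control and 1.84 to 2.74 in LPS mice.

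The third comparison followed the engrafted cells from control to LPS. Here the family split, with Ms4a6d, Ms4a4c, Ms4a6c and Ms4a6b rising and Ms4a7 falling. All 5 members tested were called, 4 higher and 1 lower, beside 21.5% of 7609 genes called in either direction, 10.2% higher and 11.3% lower. The median of the 5 log2 fold changes was 1.45, beside -0.01 over all genes. None of the 5 had overlapping libraries, beside 35.0% of all genes that did not overlap. The libraries are those of the preceding comparisons, so the results are not independent of them.

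Ms4a6d rose the most, from 132 ± 10.9 to 1230 ± 130 CPM (SD, n = 4 each). This was a 9.11-fold increase (log2 fold change 3.19, SE 0.19, adjusted p = 1.58e-10 from edgeR). Ms4a4c rose from 70.2 ± 14.4 to 297 ± 108 CPM (SD, n = 4 each), or 4.17-fold (log2 fold change 2.06, SE 0.23, adjusted p = 8.98e-07 from edgeR). The monocyte marker sums were higher in the same libraries, as given above, except that Ccr2 stood at 155 CPM in engrafted control and 46.2 CPM in engrafted LPS cells. Ms4a6c rose from 336 ± 21.5 to 944 ± 138 CPM (SD, n = 4 each), or 2.74-fold (log2 fold change 1.45, SE 0.18, adjusted p = 2.81e-06 from edgeR). Ms4a6b rose from 219 ± 29.9 to 474 ± 106 CPM (SD, n = 4 each), or 2.12-fold (log2 fold change 1.08, SE 0.19, adjusted p = 0.000182 from edgeR). Without engrafted LPS mouse 3, its highest library, that value was 0.93 and the call ended.

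Ms4a7 fell from 539 ± 24.4 to 270 ± 69.98 CPM (SD, n = 4 each). The groups did not overlap, and the log2 fold change was -1.04 (SE 0.20, adjusted p = 0.000392 from edgeR), just past 2-fold. The size of the fall rested on mice 1 and 2, which were the lowest. Without engrafted LPS mouse 1 it was -0.89, without engrafted LPS mouse 2 it was -0.93, and without the filter for low counts -0.999, and each of these ended the call. The perivascular marker sums of engrafted control and engrafted LPS libraries overlapped, and their part in the result was not tested. Of the 10 markers, 6 had lower means in engrafted LPS than in engrafted control cells (among them Pf4, at 145 against 364 CPM) and 4 had higher ones (among them F13a1, at 197 against 45.7 CPM, and Mrc1, at 505 against 437 CPM). Ms4a4b stood at 3.59 CPM in control and 13.9 CPM in LPS libraries, which overlapped by their extremes (exact permutation p = 0.0571).

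The fourth comparison followed host microglia from control to LPS. Ms4a6c, Ms4a6d, Ms4a6b and Ms4a4c rose, and Ms4a7 and Ms4a4b were too low to enter the fit. All 4 members tested were called higher (Ms4a4c passed the filter only through its LPS libraries), beside 7.66% of 8238 genes called higher and 18.0% called in either direction. Their median log2 fold change was 2.84, beside 0.01 over all genes. None of the 4 had overlapping libraries, beside 35.7% of all genes that did not overlap. Because of the way Ms4a4c passed the filter, its p-value is a description.

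Ms4a6c went from 47.9 ± 10.01 to 742 ± 107 CPM (SD, n = 4 each), a 15.4-fold increase that ranked 42 of 8238 genes by size (log2 fold change 3.94, SE 0.18, adjusted p = 8.77e-13 from edgeR). Ms4a6d went from 160 ± 19.1 to 1852 ± 111 CPM (SD, n = 4 each), 11.5-fold (log2 fold change 3.52, SE 0.15, adjusted p = 3.25e-13 from edgeR). After LPS it was the most abundant member in both populations, per kb of exon. Ms4a6b went from 109 ± 12.2 to 493 ± 138 CPM (SD, n = 4 each), 4.49-fold (log2 fold change 2.17, SE 0.19, adjusted p = 6.66e-09 from edgeR). Ms4a4c went from 12.3 ± 5.79 to 52.7 ± 8.58 CPM (SD, n = 4 each), 4.34-fold (log2 fold change 2.12, SE 0.27, adjusted p = 1.95e-06 from edgeR). Monocyte markers summed to 15.0 to 47.3 CPM in these host LPS libraries, against 12.0 to 39.8 CPM in host control.

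Ms4a7 stood at 8.41 ± 1.35 CPM in host control and 5.07 ± 2.36 CPM in host LPS libraries (SD, n = 4 each). These ranges overlapped (exact permutation p = 0.0857). Ms4a4b stood at 4.36 and 1.84 CPM (exact permutation p = 0.257). For both, a change was not detectable at this depth.

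**Figure D3:**
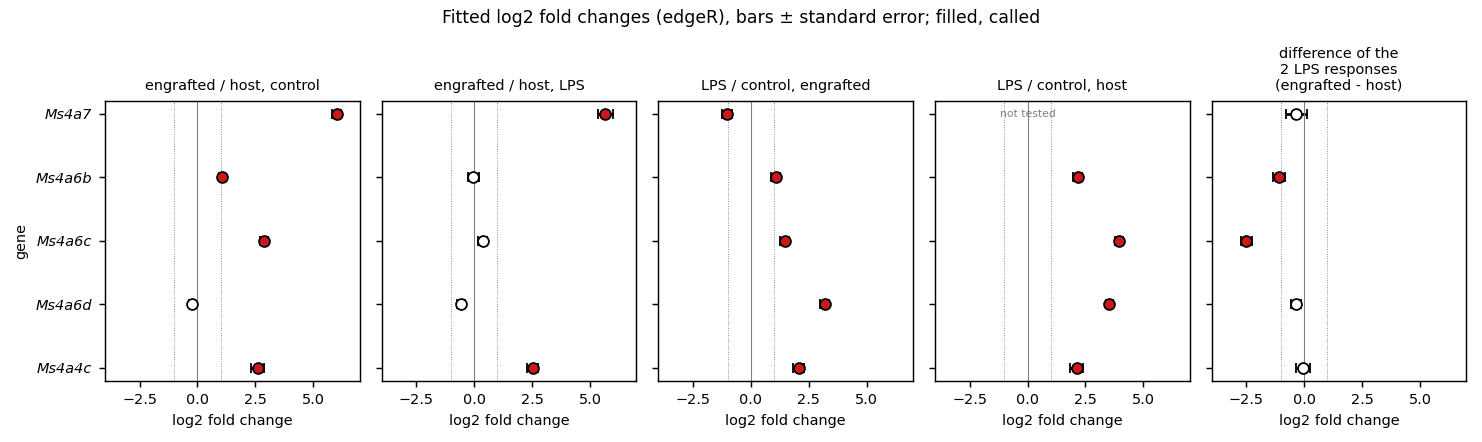
Fitted log2 fold changes (x axis, points with SE from edgeR) of the 5 members that could be tested in the 4 comparisons between groups and in the difference of the LPS responses. Filled points passed an adjusted p of 0.05 and 2-fold, and dotted lines mark 2-fold. The difference of responses was called for Ms4a6c (-2.497) and Ms4a6b (-1.09).

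The difference between the LPS responses was then tested as an interaction over all 16 libraries, counted as the engrafted minus the host log2 response. Ms4a6c and Ms4a6b responded less in engrafted cells than in host microglia. No difference was called for Ms4a6d, Ms4a4c and Ms4a7. Thus 2 of 5 members were called lower, beside 2.50% of 8847 genes called lower and 4.95% called in either direction. The median of the 5 was -0.35, beside -0.04 over all genes. The 4 pairwise comparisons use the same libraries and do not add to this test.

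For Ms4a6c the interaction was -2.497 on the log2 scale (SE 0.25, adjusted p = 1.75e-07 from edgeR). Its engrafted control level lay between the host levels without and with LPS, at 336 CPM against 47.9 and 742 CPM. For Ms4a6b it was -1.09 (SE 0.28, adjusted p = 0.0153 from edgeR). Leaving out host LPS mouse 3, the highest Ms4a6b library, gave -0.89 (adjusted p = 0.0564 from edgeR), and leaving out engrafted control mouse 8 gave -0.9997, just under 2-fold (adjusted p = 0.0370 from edgeR), so the Ms4a6b call was lost in each case. The interactions of Ms4a6d (-0.34, SE 0.21, adjusted p = 0.396 from edgeR), Ms4a4c (-0.06, SE 0.32, adjusted p = 0.953 from edgeR) and Ms4a7 (-0.35, SE 0.46, adjusted p = 0.746 from edgeR) were not called. The Ms4a7 estimate rests on few host reads and its SE allows sizeable differences in either direction.

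The order of the groups differed between the members. Ms4a7 was highest in engrafted control, then in engrafted LPS cells, at a 1.99-fold step, followed by both host groups, which overlapped. Ms4a6c was highest in the LPS groups, which overlapped, then in engrafted control and last in host control. Ms4a6b had the same order except that host LPS and engrafted LPS changed places within their overlap. Ms4a6d ran from host LPS over engrafted LPS to both control groups, which overlapped. Ms4a4c was highest in engrafted LPS, and its engrafted control and host LPS libraries overlapped in the middle. In Ms4a4b, each pair of neighbours in the order overlapped.

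**Figure D4:**
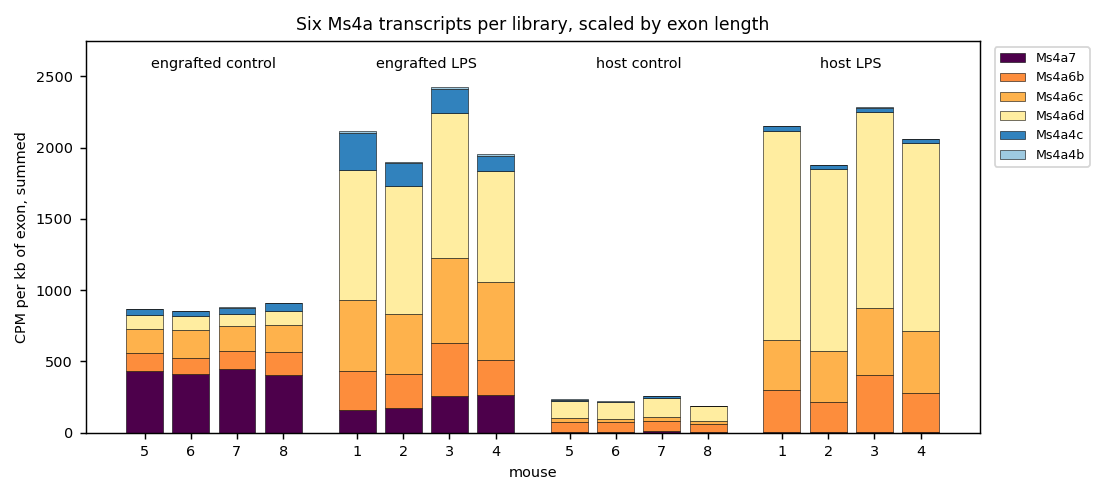
Summed level of the 6 genes per library (CPM per kb of exon, stacked bars from 0) for each mouse in the 4 groups. Ms4a7 took the largest share in engrafted control libraries, and Ms4a6d in engrafted LPS, host control and host LPS libraries.

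To compare genes with each other, CPM were divided by exon length, with the reservation that the libraries were primed at the 3′ end, where reads do not scale with length. Summed over the 6 genes, engrafted control libraries held 878 ± 23.4 and host control libraries 226 ± 28.8 CPM per kb (SD, n = 4 each). After LPS the sums were 2097 ± 236 in engrafted cells and 2095 ± 170 in host microglia (SD, n = 4 each). Thus the family sums were close after LPS, yet the composition was not, as the stacked bars of summed levels show. Ms4a7 made up 48.3 ± 2.70% of the sum in engrafted control, 10.1 ± 2.54% in engrafted LPS, 2.95 ± 0.44% in host control and 0.196 ± 0.11% in host LPS libraries (SD, n = 4 each). Ms4a6d made up 11.01 ± 0.87%, 43.2 ± 3.24%, 52.1 ± 2.95% and 65.1 ± 3.68% in the same order.

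**Figure D5:**
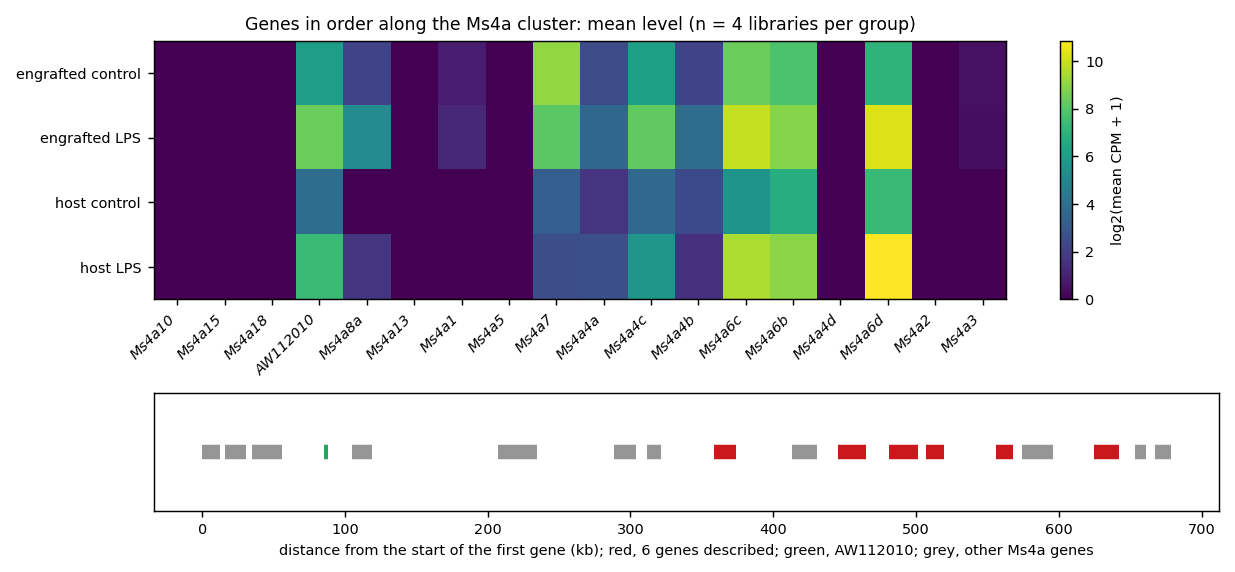
Upper panel, mean level (log2 of mean CPM + 1, colour, n = 4 libraries per group) of 17 Ms4a genes and AW112010 in their order along the chromosome. Lower panel, their positions by distance in kb from the start of the first gene, with the 6 genes in red, AW112010 in green and the other Ms4a genes in grey. Genes with high levels, such as Ms4a6b and Ms4a6d, flank genes such as Ms4a4d among the 7 that had no read.

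The rest of the cluster was mostly silent. Of the 11 other Ms4a genes, 7 had no read in any library, and Ms4a1 (CD20) and Ms4a3, known from granulocyte and monocyte precursors, had 4 and 2 reads in all 16 libraries together. Ms4a8a (chromosome 19, 11141961 to 11155593) had 15 to 46 reads in engrafted LPS libraries, 1 to 4 in engrafted control, 0 to 6 in host LPS and 0 in all host control libraries, each of which allows up to 3 reads. The level was 36.6 ± 12.4 CPM in engrafted LPS, 3.54 ± 2.53 in engrafted control and 2.32 ± 3.24 CPM in host LPS cells (SD, n = 4 each), and the engrafted LPS libraries overlapped with neither (exact permutation p = 0.0286 each). Ms4a8a passed the filter for low counts only through engrafted LPS, the group in which it was high, so its calls across genes are not given. Ms4a4a (chromosome 19, 11449978 to 11467405) was sparse, with at most 11 reads, and was higher in engrafted LPS than in host LPS libraries at 11.6 ± 2.04 against 5.24 ± 2.66 CPM (SD, n = 4 each, exact permutation p = 0.0286).

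Tmem176a and Tmem176b on chromosome 6 encode related membrane proteins. Both were higher in engrafted control than in host control libraries, 5.99-fold for Tmem176a (adjusted p = 6.73e-14 from edgeR) and 4.74-fold for Tmem176b (adjusted p = 2.78e-14 from edgeR). In contrast to the Ms4a6 genes, neither rose after LPS in either population. Tmem176b fell in engrafted cells from 2781 ± 75.7 to 1207 ± 143 CPM (SD, n = 4 each, adjusted p = 6.46e-06 from edgeR).

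Within 500 kb on either side of the cluster and inside it, the table holds 48 other genes, of which 28 had a read and 12 to 15 were tested, depending on the comparison. In engrafted against host control cells, 2 of 13 were called higher and 1 lower, beside 6.25% and 4.73% of all genes tested. In engrafted against host LPS cells, 2 of 12 had an adjusted p below 0.05 from edgeR, beside 1346 of 7843 genes tested. Both were under 2-fold, so 0 were called, beside 11.1% of all genes. After LPS, 3 of 13 were called higher and 1 lower in engrafted cells, beside 10.2% and 11.3% of all genes, and 2 of 12 higher and 1 lower in host microglia, beside 7.66% and 10.4%. Of the neighbours with the highest means, the transporter gene Slc15a3 was called higher after LPS in engrafted cells (log2 fold change 1.07) and missed 2-fold in host microglia (0.94). Ccdc86 was called higher in both (2.12 and 2.51), and Tmem109 in no comparison.

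AW112010, a noncoding RNA in the table's annotation (chromosome 19, 11122102 to 11125056, minus strand), lies inside the cluster, between Ms4a18 and Ms4a8a. It stood at 64.5, 82.6, 52.4 and 72.0 CPM in engrafted control and 13.2, 13.6, 14.4 and 14.3 CPM in host control libraries of mice 5 to 8. In LPS mice 1 to 4 it stood at 388, 299, 428 and 196 CPM in engrafted and 186, 202, 142 and 138 CPM in host libraries. The populations were apart in control mice, and their ranges overlapped in LPS mice. Within every LPS mouse, however, the engrafted library lay above the host one. That difference was just under 2-fold and so not called (log2 fold change 0.999, SE 0.23, adjusted p = 0.00522 from edgeR). AW112010 was called higher in engrafted control cells (log2 fold change 2.33) and after LPS in engrafted cells (2.25) and host microglia (3.57). Its interaction of -1.33 (SE 0.32, adjusted p = 0.0118 from edgeR) was called lower, as 1 of 15 neighbours tested, beside 2.50% of all genes. AW112010 was singled out after its values were seen.

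Finally, the genes with the most similar profile over the 16 libraries were listed for each member, by the mean absolute difference of log2(CPM + 1) after removal of each gene's mean. For Ms4a7 these were the protease inhibitor Serpinb8 (0.38), the chemokine Pf4 (0.45) and cathepsin E, Ctse (0.45), where the median gene differed by 2.87. For Ms4a6c they were AB124611 (0.30), AW112010 (0.40) and Xdh (0.49), beside a median of 1.47. For Ms4a6d they were the ubiquitin ligase Rnf169 (0.28), the FK506-binding protein Fkbp5 (0.30) and the Fc receptor Fcgr4 (0.32), beside 1.70. For Ms4a4c they were Tgfbi (0.36), Ifi211 (0.39) and Ifitm3 (0.40), beside 1.38, the last 2 known as interferon-induced genes. For Ms4a6b, Dram2, Ybx3 and Milr1 (0.27 each) came first, beside 0.89. The list of Ms4a4b (Gpx1, Card19 and Eno1b) rests on few reads, since most of its libraries held fewer than 8. The points share their libraries and their 4 groups, and likeness of profile is a description of these libraries only.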

How the data were processed

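RNA from engrafted cells and host microglia of 8 BM chimeras (10000 sorted cells each per the labels) was captured with oligo(dT) and made into 3′ libraries by a method derived from MARS-seq. By the study's methods, the authors mapped reads to NCBI37/mm9 with hisat (version 0.1.5 in the submitters' processing notes), kept unique reads and deposited raw sense-strand exon counts per gene from HOMER, with no step for molecular identifiers stated. Groups came from the sample titles. Reads on genes were 64.0 to 76.5% of the mapped tags. p-values measure the spread between the libraries of a group, each from a different mouse, and counts of 0 allow up to 3 reads, for counting error only.

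The counts were filtered with filterByExpr (minimum count 10, minimum total 15), TMM-scaled and tested with edgeR 4.0.16 (quasi-likelihood, prior count 0.125, Benjamini-Hochberg adjustment over all genes tested, called below 0.05 with a log2 fold change beyond 1) in R 4.3.3, within the groups compared, or over all groups for the interaction. The functions were tested on simulated data. Members below the filter were given a 2-sided exact permutation test of log2(CPM + 1). This test and the main edgeR fits treated the libraries as independent, also where engrafted and host libraries came from the same mice. The members, marker lists and motifs were chosen with earlier results of these data known. Named genes were the members, other Ms4a genes above 3 reads in a library, Tmem176a, Tmem176b, the 3 highest neighbours within 500 kb and the 3 nearest profiles. Sequences were read from the mm9 reference genome, with starts from the deposited table, and aligned with Biopython 1.88. Same-numbered libraries come from the same mouse, and their deviations from the group means correlated at -0.03 to 0.19 per mouse. Alternatives were other scaling, no filter, DESeq2 1.42.0, the mouse as a block, all libraries in one fit and each library left out.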

Additional observations from a re-analysis of the deposited data

Results flagged for a closer look

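The change after LPS differed between the populations, by the interaction test, for Ms4a6c (-2.497 on the log2 scale, engrafted minus host) and Ms4a6b (-1.095). Of 31 sets of 4 values of one gene in one group, 2 had a library far from the others, both of Ms4a4b, by Dixon's ratio of the gap to the range (against its critical value for 4 samples). The lowest engrafted LPS library (mouse 2, 6 reads, ratio 0.8729) and the highest host control library (mouse 5, 7 reads, ratio 0.8497) stood apart. Chance sets apart about 1 in 20 such groups, and both values rest on few reads.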

How the results depend on the processing

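With the mouse as a replicate block (a paired fit), 4, 2 and 2 members were called in engrafted against host control, engrafted against host LPS and the interaction, as without it, with 900, 882 and 478 genes called in all against 883, 868 and 438, and no member's call changed. Without the filter for low counts, 1454 genes were called in engrafted against host control and 1352 in engrafted against host LPS, with adjusted p-values that were far smaller for some members (the cause was not tested), and Ms4a7 no longer counted as falling in engrafted cells, so that 0 members were called lower there. Leaving out 1 library at a time gave 0 to 1 members called lower after LPS in engrafted cells (0 without engrafted LPS mouse 1 or 2), and 1 to 2 lower and 0 to 1 higher in the interaction. The member called higher was Ms4a4b (3.82, adjusted p = 0.0406 from edgeR without engrafted control mouse 7, and 3.19, adjusted p = 0.0481 from DESeq2, with 1 called higher). Ms4a4b was also called higher in engrafted LPS cells against host LPS by DESeq2 (2.97, adjusted p = 0.00261), by edgeR without the filter (2.85, adjusted p = 8.70e-05) and by edgeR in 5 fits with a library left out (adjusted p = 0.00130 to 0.00844). Against engrafted control cells it was called by DESeq2 (1.995, adjusted p = 0.0362), by edgeR without the filter (1.97, adjusted p = 0.00971) and by edgeR in 3 such fits (adjusted p = 0.00383 to 0.0313). It entered the fits with a library left out only through engrafted LPS, where it was high, so its p-values in those fits are descriptions. Directions turned only for values near 0 that were never called, over these left-out libraries. These were Ms4a6b between populations after LPS (0.03 to 0.15 in 3 cases, with a range of -0.18 to 0.15) and the Ms4a4c interaction (0.07 to 0.12 in 5 cases, with a range of -0.31 to 0.12). The values of Ms4a6b were 0.06, 0.15 and 0.03, and those of Ms4a4c 0.08, 0.09, 0.12, 0.07 and 0.12. Limits are the few reads of Ms4a7 in host microglia and of Ms4a4b, reads shared between paralogs, and monocyte markers in engrafted LPS libraries.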
